A study of Mus musculus with 24 samples.

Results

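S100g, Calb1 and Parm1 are 3 mouse genes whose uterine response to progesterone (P4) had opposite signs 4 h after a first injection and 40 h into repeated injections. They were taken as the probe sets that the array's annotation assigns to one of these genes alone, which gave 4 probe sets for 3 genes out of 8251 genes named in this way, with a brighter and a dimmer probe set for S100g and 1 each for Calb1 and Parm1. The genes were chosen by the sign of the P4 effect in wild-type uteri at both times, and those values are therefore given as a description and not as a test. The mice were wild type or progesterone receptor knockout (PRKO). Their ovaries were removed at 6 weeks of age, and 2 weeks later they received sesame oil vehicle or 1 mg P4 in the same oil at each injection. The 8 groups of 3 Affymetrix arrays were wild-type vehicle, wild-type P4, PRKO vehicle and PRKO P4, each taken 4 h after a single injection or 4 h after the last of 4 injections given every 12 h (40 h). Every mouse lacked ovaries, the controls included, and the RNA was a pool of 5 mice for each genotype and treatment. The labels give neither the strain nor how the PRKO allele was made. They also leave unsaid whether replicate arrays came from different pools, so an error here is that of arrays, which may be technical.

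P4 acts through the progesterone receptor, a ligand-activated transcription factor found in epithelium, stroma and muscle of the uterus. S100g and Calb1 encode the small and the large calbindin, cytosolic proteins that bind calcium through EF-hand loops and carry or buffer it in transporting epithelia such as gut, kidney and uterus. S100g is a long-known target of steroid hormones in the rodent uterus. Parm1 encodes a mucin-like membrane glycoprotein first described in prostate, where androgens regulate it.

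The upstream sequences of S100g and Parm1 are shown because the genes have opposite signs at both times. They are 250 bases before the annotated start, from RefSeq on GRCm38.p6, written 5′ to 3′ on the gene's strand, and the promoter table had no entry for Calb1. Capitals mark the core motif of the estrogen receptor, GGTCA, on either strand (TGACC on the other), a motif found in 35.2% of 32851 such windows.
S100g, chrX:162964600-162964849, minus strand: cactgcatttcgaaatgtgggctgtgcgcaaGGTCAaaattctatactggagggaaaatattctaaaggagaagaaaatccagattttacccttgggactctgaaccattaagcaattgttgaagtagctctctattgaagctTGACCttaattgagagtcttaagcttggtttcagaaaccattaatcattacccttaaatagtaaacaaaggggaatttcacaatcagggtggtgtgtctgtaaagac
Parm1, chr5:91517450-91517699, plus strand: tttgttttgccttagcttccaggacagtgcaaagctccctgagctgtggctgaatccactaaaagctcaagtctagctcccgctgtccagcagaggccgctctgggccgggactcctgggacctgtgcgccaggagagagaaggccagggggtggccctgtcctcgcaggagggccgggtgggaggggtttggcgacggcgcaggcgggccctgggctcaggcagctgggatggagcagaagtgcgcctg
The S100g window held 2 of these motifs, from −219 to −215 and from −107 to −103 relative to the start, and the Parm1 window held 0. The 35.2% above counts windows with any match, and windows with 2 or more were not counted apart. The core motif shared by the progesterone, glucocorticoid and androgen receptors, AGAACA or TGTTCT, was in neither window and in 16.1% of all windows. The palindromes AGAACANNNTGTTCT and GGTCANNNTGACC were in neither, and in 0.0091% and 0.0639% of all windows, the second containing GGTCA by its construction. The windows also differed in base composition, with 38.4% G and C for S100g and 65.2% for Parm1 against a median of 52.4% over all windows. A match is a description of the letters and not a bound site.

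Signals are MAS5 values on a linear scale after each array was set to a common trimmed mean, and a value of one probe set cannot be set against another's. In mean signal over all arrays, Calb1 lay at percentile 89.3 of the 12422 probe sets, the brighter S100g probe set at 73.6, Parm1 at 54.0 and the dimmer S100g probe set at 24.4. Log2 fold changes were taken after adding 32 to each signal, which compresses those of the dimmer S100g probe set most. The array medians lay between 323.2 and 342.6. The Gapdh ratio of 3′ to 5′ signal, a sign of RNA quality, was 3.67 in replicate 2 of wild-type vehicle and 3.25 in replicate 2 of wild-type P4 at 4 h, and 1.23 to 1.86 on the other 22 arrays. The Pgr probe set was dim (percentile 22.4), and its mean was higher in wild-type than in PRKO uteri in each of the 4 matched conditions. It was 145 ± 4.50 (SD, n = 3) against 126 ± 4.48 with vehicle and 121 ± 18.3 against 115 ± 3.78 with P4 at 4 h, and 147 ± 16.1 against 129 ± 9.59 and 156 ± 12.5 against 116 ± 8.88 at 40 h. Where the probe set lies relative to the deleted part was not analysed here.

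At 4 h in wild-type uteri, both calbindin genes were lower after P4 and Parm1 was higher. On the brighter S100g probe set the vehicle arrays read 433, 461 and 755 and the P4 arrays 287, 235 and 239. On the dimmer one, vehicle arrays read 111, 163 and 187 and P4 arrays 72.4, 55.7 and 58.6. Both probe sets thus put every P4 array below every vehicle array, with vehicle means 2.16 and 2.47 times the P4 means. Calb1 read 1624, 1372 and 1874 after vehicle and 588, 638 and 488 after P4, and its vehicle mean was 2.84 times its P4 mean. Parm1 ran the other way, with 339.6, 299 and 304 after vehicle and 523, 461 and 386 after P4, a ratio of means of 1.45. Groups did not overlap for any of the 4 probe sets, a separation seen for 6.67% of all probe sets in this comparison, and nothing is read from it, since these values chose the genes. The log2 differences were −0.99 ± 0.17 (SE) and −0.96 ± 0.14 for S100g, −1.45 ± 0.29 for Calb1 and 0.49 ± 0.10 for Parm1. The Calb1 value was the lowest among all 12422 probe sets. Without both arrays of high Gapdh ratio, described above, the differences were −1.04, −0.87, −1.65 and 0.45 in the same order. In whole uteri, fewer cells of a type and less RNA per cell cannot be told apart.

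**Figure D1:**
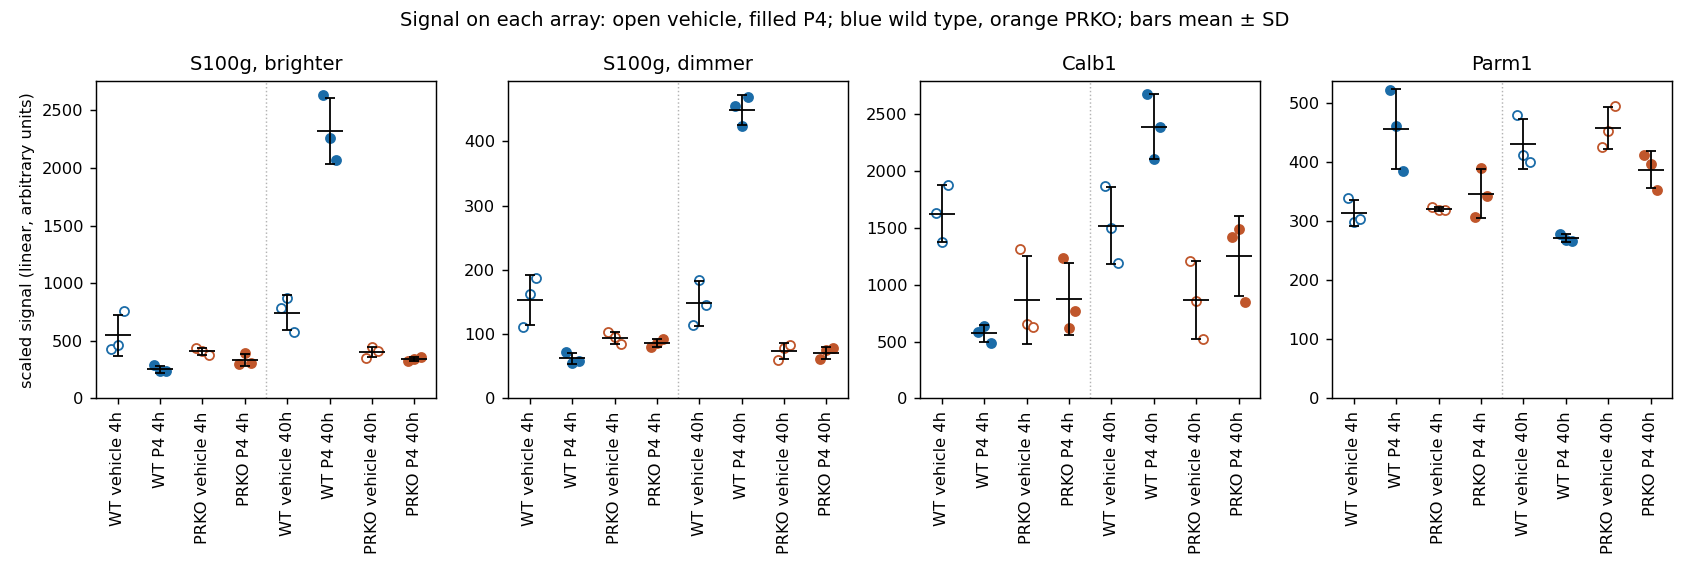
Scaled signal (linear axis from 0) of the S100g, Calb1 and Parm1 probe sets on each of 24 arrays, by group, with the mean and SD of 3 arrays as bars. Wild-type P4 arrays at 40 h stand above every other array for S100g (2073 to 2633 on the brighter probe set) and below every PRKO array for Parm1 (267 to 279).

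At 40 h in wild-type uteri, the signs were turned: S100g and Calb1 were higher after P4 and Parm1 was lower. The brighter S100g probe set read 788, 872 and 573 after vehicle and 2633, 2260.4 and 2073 after P4. The dimmer one read 115, 184 and 145 after vehicle and 455, 423 and 469 after P4. The P4 means were 3.12 and 3.04 times the vehicle means, and these were the highest S100g readings on any of the 24 arrays. Calb1 read 1866, 1499 and 1189 after vehicle and 2677, 2099 and 2386 after P4, a ratio of means of 1.57. Parm1 read 480.2, 412 and 401 after vehicle and 279, 269 and 267 after P4, so the vehicle mean was 1.59 times the P4 mean. The groups again did not overlap for any of the 4 probe sets, as for 19.8% of all probe sets here. The log2 differences were 1.61 ± 0.17 and 1.44 ± 0.14 for S100g, 0.66 ± 0.29 for Calb1 and −0.61 ± 0.10 for Parm1. From 4 h to 40 h the P4 effect thus moved by 2.60 ± 0.23 and 2.40 ± 0.19 for S100g, 2.11 ± 0.42 for Calb1 and −1.10 ± 0.14 for Parm1. The S100g and Calb1 values were the 3 highest of all 12422 such differences, which the choice of genes favours. The Gapdh ratio differed with treatment on these arrays, at 1.23 to 1.30 after P4 and 1.48 to 1.60 after vehicle, and its part in the values was not tested.

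**Figure D2:**
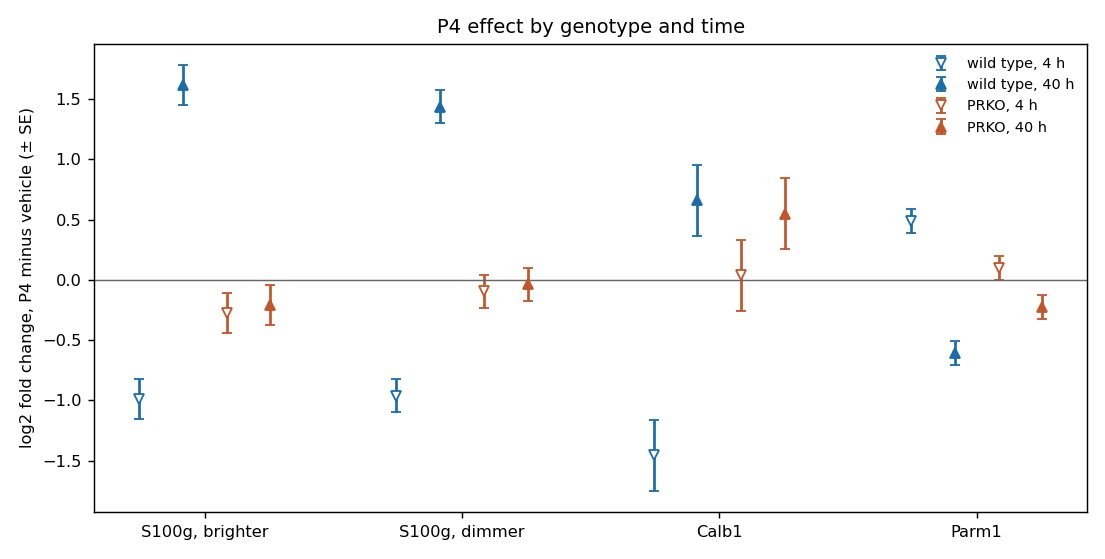
Log2 fold change of P4 against vehicle (± SE, 3 arrays against 3) for the 4 probe sets, with open symbols for 4 h and filled symbols for 40 h, blue for wild type and orange for PRKO. The wild-type S100g values go from −0.99 to 1.61 and the PRKO values stay between −0.27 and −0.04, while Calb1 at 40 h has 0.66 in wild-type and 0.55 in PRKO uteri.

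Few probe sets on the array passed at both times with opposite signs. In sign alone the P4 effects at 4 h and 40 h were opposite for 41.7% of all probe sets in wild-type and 48.9% in PRKO uteri. Arrays did not overlap at either time, with opposite directions, for 52 probe sets in wild-type (0.419%, among them the 4 of S100g, Calb1 and Parm1) and 45 in PRKO uteri (0.362%), and with the same direction for 154 in wild-type uteri (1.24%). In wild-type uteri 88 probe sets (0.708%) passed an adjusted p of 0.05 in limma at 4 h and 191 (1.54%) at 40 h. Of these, 18 passed at both times (0.145%), and 4 (0.0322%) did so with opposite signs. The 4 were both S100g probe sets, Parm1 and Aldh1a1, which encodes an enzyme of retinoic acid synthesis. For S100g and Parm1 these are the values that chose them, so their place among the 4 is no test of them, and Calb1 was not among the 4. Aldh1a1 had the signs of Parm1, with signals of 1001 ± 200.1 after vehicle and 1597 ± 116 (SD, n = 3) after P4 at 4 h, and 1025 ± 146 and 586 ± 58.2 at 40 h. Its log2 changes were 0.67 ± 0.12 (adjusted p = 0.00528) and −0.77 ± 0.12 (adjusted p = 0.00102). A second, dim Aldh1a1 probe set gave −0.13 ± 0.09 and −0.02 ± 0.09. Without both arrays of high Gapdh ratio, 29 probe sets passed at 4 h and only the S100g probe sets were left of the 4. Parm1 left the 4 without replicate 2 or 3 of wild-type vehicle or replicate 1 or 2 of wild-type P4 at 4 h, each left out alone, and with the wild-type arrays fitted alone 1 of the 4 was left, the dimmer S100g probe set.

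**Figure D3:**
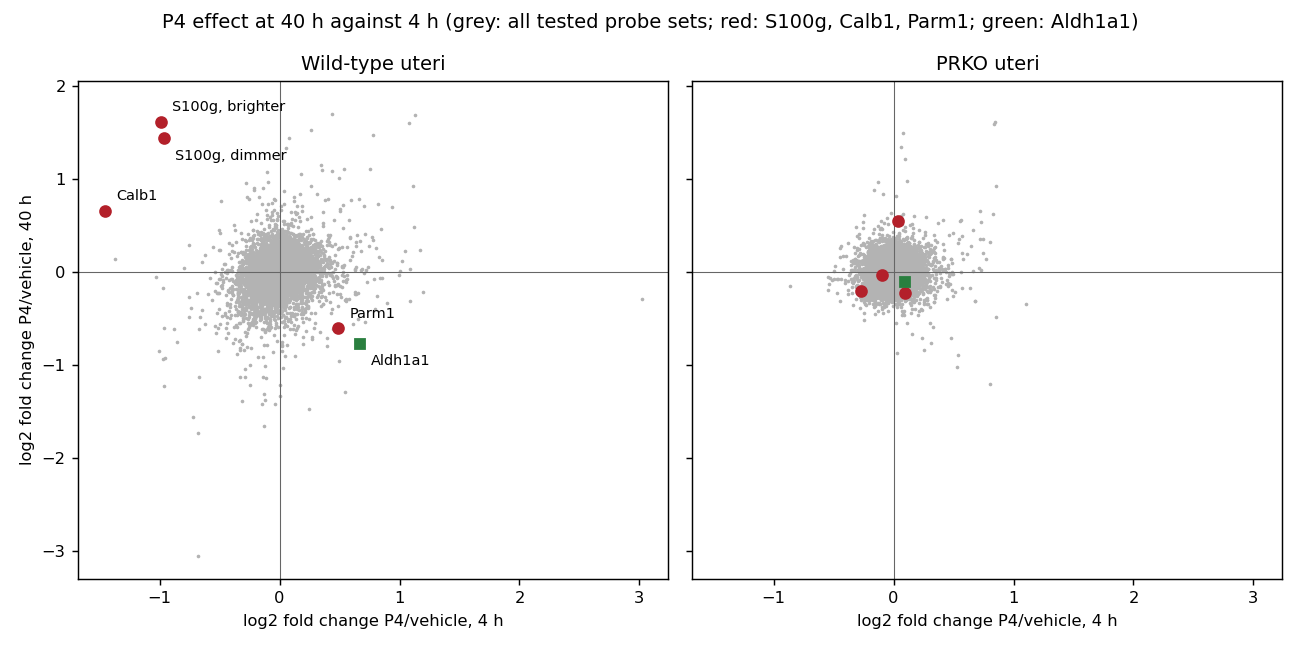
Log2 fold change of P4 at 40 h (vertical) against 4 h (horizontal) for all 12422 probe sets in grey, in wild-type (left) and PRKO uteri (right). S100g and Calb1 lie in the upper left corner and Parm1 and Aldh1a1 in the lower right in wild-type uteri, and no red or green point lies beyond 0.55 on either axis in PRKO uteri.

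The rule that chose the genes did not use the PRKO arrays, so P4 effects were tested there. No member passed at 4 h, and no probe set on the array did (0% of 12422 by limma, with 236, or 1.9%, at an unadjusted p under 0.05). S100g read 441, 410.5 and 380.2 after vehicle and 302, 397 and 309 after P4 on its brighter probe set, and 84.3 to 104 after vehicle and 80.5 to 91.7 after P4 on the dimmer. Both pairs of groups overlapped, as did those of Calb1 and Parm1, against 4.31% of all probe sets without overlap. The log2 differences were −0.27 ± 0.17 (95% interval −0.62 to 0.07) and −0.09 ± 0.14 (−0.38 to 0.19). Parm1 read 325, 320.2 and 319 after vehicle and 308, 390.1 and 343 after P4, a difference of 0.10 ± 0.10 (−0.11 to 0.30). Calb1 read 1312, 649.6 and 631 after vehicle and 1232, 619 and 771 after P4, so that replicate 1 stood well above the others in both groups. Its difference was 0.04 ± 0.29 with a wide interval, −0.57 to 0.65. The adjusted p of all 4 was 1.00.

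At 40 h in PRKO uteri the S100g and Calb1 arrays of both treatments overlapped. The Calb1 and Parm1 values had the signs seen in wild-type uteri, and the S100g values had the opposite ones. How many of all probe sets kept their sign between genotypes was not counted, so nothing is read from these signs. No probe set passed (0% of 12422, with 831, or 6.69%, at an unadjusted p under 0.05). S100g read 354, 444 and 415 after vehicle and 328, 344 and 361 after P4 on the brighter probe set, a difference of −0.21 ± 0.17 (95% interval −0.55 to 0.14, adjusted p = 0.734). On the dimmer probe set it read 60.4, 78.6 and 83.6 after vehicle and 60.6, 74.7 and 78.6 after P4, and the difference was −0.04 ± 0.14 (−0.32 to 0.25, adjusted p = 0.947). Neither interval reached above 0.25. Calb1 read 1209, 859 and 525 after vehicle and 1414, 1491 and 844 after P4, a difference of 0.55 ± 0.29 that did not pass (−0.06 to 1.16, adjusted p = 0.703). Set beside the wild-type 0.66 ± 0.29, the genotypes' P4 effects on Calb1 at 40 h differed by −0.11 ± 0.42 (PRKO minus wild type), against 1.49 ± 0.42 at 4 h. For S100g the same difference was −1.82 ± 0.23 and −1.47 ± 0.19 at 40 h, against 0.71 ± 0.23 and 0.87 ± 0.19 at 4 h. For Parm1 it was 0.38 ± 0.14 at 40 h and −0.39 ± 0.14 at 4 h. These differences contain the wild-type effects that chose the genes, so they are a description and no conclusion about genotype is drawn from them. Parm1 read 427, 453 and 496 after vehicle and 413, 397 and 353 after P4. No P4 array reached the lowest vehicle array, a separation found for 22.3% of probe sets in this comparison, and the difference of −0.23 ± 0.10 did not pass (−0.43 to −0.02, adjusted p = 0.703).

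The change of the P4 effect with time was also tested within PRKO uteri, where no probe set passed (0%, with 397, or 3.2%, at an unadjusted p under 0.05). It was 0.06 ± 0.23 (adjusted p = 0.988) and 0.06 ± 0.19 (adjusted p = 0.987) for S100g, with 95% intervals of −0.42 to 0.55 and −0.35 to 0.46. For Calb1 it was 0.51 ± 0.42 (−0.36 to 1.37) and for Parm1 −0.32 ± 0.14 (−0.61 to −0.03), both with an adjusted p of 0.971. All these values had the sign of the wild-type ones, though those of S100g were smaller than their SE. The Calb1 value was 0.18 without replicate 1 of PRKO vehicle at 4 h and 0.78 without replicate 1 of PRKO vehicle at 40 h. No genotype comparison is drawn from these sizes, since the choice of genes favours large wild-type values.

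The levels without P4 differed by gene, genotype and time. In PRKO vehicle uteri, Parm1 was higher at 40 h than at 4 h on every array, by 0.47 ± 0.10 (unadjusted p = 0.000104), which did not pass over all probe sets (adjusted p = 0.137). No probe set passed in that comparison (0%), 11.1% had an unadjusted p under 0.05, and 18.6% had no overlap. Wild-type vehicle uteri had a like difference, 0.42 ± 0.10, also without overlap (16.3% of probe sets). Parm1 after 4 h of P4 in wild-type uteri, at 457 ± 68.3 (SD, n = 3), overlapped the vehicle groups of 40 h, 431 ± 42.7 in wild-type and 459 ± 35.1 in PRKO uteri. S100g and Calb1 did not pass between the times in PRKO vehicle uteri (−0.02 ± 0.17 and −0.26 ± 0.14 for S100g, 0.01 ± 0.29 for Calb1, adjusted p from 0.509 to 0.995), though the dimmer S100g probe set had no overlap and was lower at 40 h. In wild-type vehicle uteri the S100g probe sets disagreed, at 0.44 ± 0.17 on the brighter and −0.04 ± 0.14 on the dimmer. Calb1 had −0.11 ± 0.29 there. All of these wild-type groups overlapped, and the values are a description. The labels do not say whether arrays of both times were processed together, so time and processing cannot be told apart.

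In vehicle uteri S100g and Calb1 were lower in PRKO than in wild type, a description only, since the wild-type vehicle arrays took part in the choice. The differences at 4 h and 40 h were −0.35 ± 0.17 and −0.82 ± 0.17 on the brighter S100g probe set, −0.54 ± 0.14 and −0.75 ± 0.14 on the dimmer, and −0.96 ± 0.29 and −0.84 ± 0.29 for Calb1. The dimmer S100g probe set and Calb1 had no overlap at 4 h (6.05% of all probe sets had none), and both S100g probe sets had none at 40 h (10.3%). Parm1 had 0.03 ± 0.10 and 0.08 ± 0.10. Under P4 the order of the genotypes for S100g depended on time, with PRKO minus wild type at 0.36 ± 0.17 and 0.33 ± 0.14 at 4 h (no overlap, as for 10.3% of probe sets) and at −2.64 ± 0.17 and −2.22 ± 0.14 at 40 h. At 40 h none of the 4 probe sets overlapped between genotypes under P4, against 35.2% of all.

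Across the 8 groups, the order of the mean levels was alike for both calbindin genes at its ends. Wild-type P4 at 40 h was highest and wild-type P4 at 4 h lowest for both S100g probe sets and for Calb1. The top group was apart from the next for all 3 probe sets (2322 ± 285, SD, n = 3, against 744 ± 154 for the brighter S100g probe set, and 2387 ± 289 against 1624 ± 251 for Calb1). The ranges of all other neighbours in that order overlapped for Calb1. For the brighter S100g probe set, wild-type P4 at 4 h was also apart, at 254 ± 29.1 against 336 ± 53.2 in PRKO P4 at 4 h. For the dimmer one, wild-type vehicle at 40 h (148 ± 34.4) was apart from PRKO vehicle at 4 h (94.4 ± 9.72). For Parm1, wild-type P4 at 40 h was lowest, at 272 ± 6.40, and apart from the next, wild-type vehicle at 4 h, at 314 ± 22.3, while the ranges of all its other neighbours overlapped. The choice of genes used the wild-type P4 groups, which favours their place at the ends. The share of all probe sets with such gaps between groups ordered by level was not counted, so nothing is read from the gaps.

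The genes also differed in how far arrays of a group spread. The within-group SD of the log2 signal was 0.41 for Calb1, at percentile 98.6 of all probe sets, 0.22 and 0.18 for S100g and 0.12 for Parm1, against a median of 0.13. For Calb1 it was 0.23 over wild-type and 0.53 over PRKO groups, so the Calb1 tests above are the least precise. For S100g it was 0.28 and 0.22 over wild-type and 0.14 and 0.13 over PRKO groups. The SE of 0.29 given above for the P4 effects on Calb1 pools both genotypes. With the arrays of 1 genotype fitted alone, that SE was 0.16 in wild-type and 0.35 in PRKO uteri.

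No gene on 4 lists of related genes passed at both times. The list of calcium entry, extrusion and its hormones had 13 of 26 genes measured, of which 0 passed at 4 h (where 0.708% of all probe sets did) and 1 rose at 40 h (against 1.54%) in wild-type uteri, the parathyroid hormone receptor gene Pth1r (0.66 ± 0.16, adjusted p = 0.041). Its medians, 0.003 and −0.09, compare with 0.001 and 0.0008 over all probe sets. The sodium-calcium exchanger Slc8a1 had −0.35 ± 0.11 and −0.09 ± 0.11 and the vitamin D receptor Vdr 0.16 ± 0.12 and 0.10 ± 0.12, none of which passed. Of the other EF-hand protein genes, 28 of 34 were measured, 0 passed at 4 h and 3 rose at 40 h. These were the endoplasmic reticulum protein gene Rcn1 (0.87 ± 0.11, adjusted p = 0.000123), the annexin partner S100a10 (0.71 ± 0.10, adjusted p = 0.00044, but 0.004 at its other probe set) and the matrix protein gene Sparc (0.57 ± 0.13, adjusted p = 0.0207). Their 4 h values were 0.04, 0.009 and −0.10. Calb2 (calretinin) had 0.07 ± 0.10 and 0.13 ± 0.10, and the list's medians were 0.01 at 4 h and 0.04 at 40 h.

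No other membrane mucin passed at either time among 11 of 15 measured, with medians of −0.06 and −0.08. Muc1, the main membrane mucin of uterine epithelium, had −0.11 ± 0.11 at both times, and the largest values were −0.43 ± 0.11 for Cd24a at 4 h (adjusted p = 0.086) and −0.44 ± 0.13 for the podoplanin gene Pdpn at 40 h (adjusted p = 0.126). Of 11 listed nuclear receptors 9 were measured and 0 passed at either time (medians −0.004 and −0.02), the estrogen receptor Esr1 having −0.05 ± 0.15 and 0.03 ± 0.15. In PRKO uteri no gene of these 4 lists passed at either time.

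**Figure D4:**
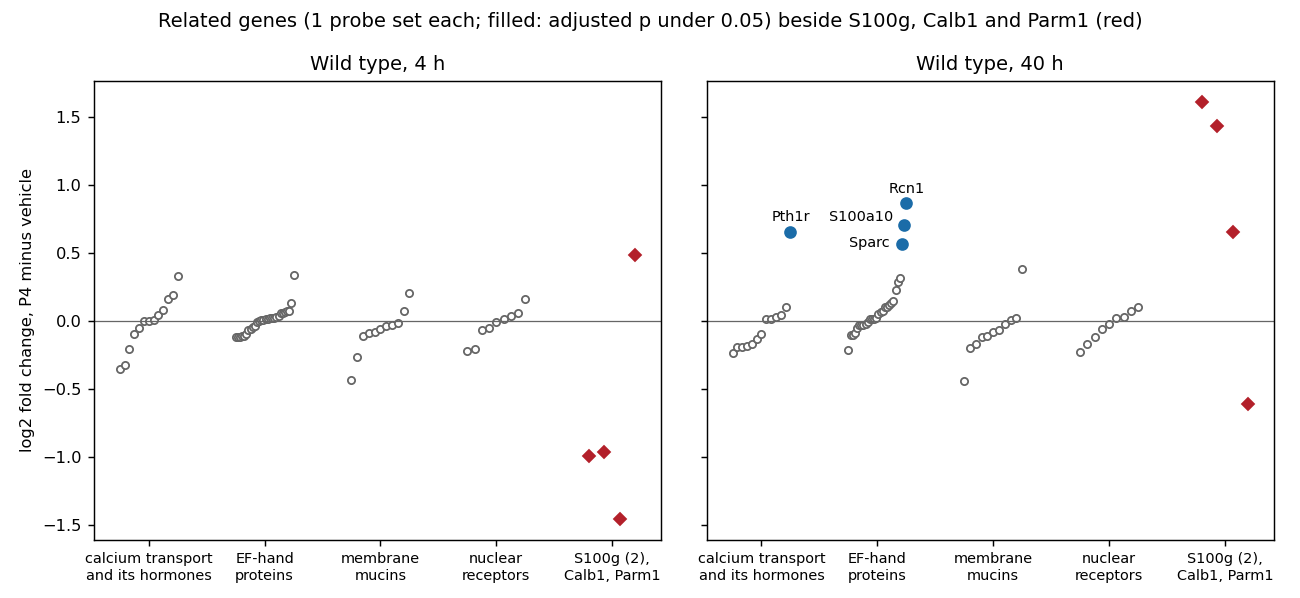
Log2 fold change of P4 against vehicle in wild-type uteri at 4 h (left) and 40 h (right) for the genes of 4 related lists, 1 probe set each, beside the 4 probe sets of S100g, Calb1 and Parm1 in red. Filled circles passed an adjusted p of 0.05, which Pth1r, Rcn1, S100a10 and Sparc did at 40 h and no listed gene did at 4 h.

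Markers of the tissues in a uterus sample moved with P4, mainly at 40 h. Of all probe sets in wild-type uteri, 1.54% passed at 40 h and 0.708% at 4 h. No overlap was seen for 19.8% at 40 h and 6.67% at 4 h, shares of single probe sets and not of sums. In wild-type uteri at 40 h the summed signal of 19 epithelial markers, the cells in which uterine calbindins are known, was 17456 to 18701 after vehicle and 14673 to 16139 after P4, where S100g and Calb1 were higher, and 2 of the 19, Krt7 (−0.65 ± 0.12) and Tspan8 (−0.93 ± 0.17), fell. At 4 h it was 16601 to 19799 and 14882 to 17031, which overlapped, with Tspan8 falling (−0.95 ± 0.17). The endothelial sum had no overlap at 4 h, at 4600 to 4651 after vehicle and 4262 to 4558 after P4. In the same 40 h arrays, 10 stromal markers summed to 23708 to 30110.4 after vehicle and 33781 to 38131 after P4, with 4 rising (Col1a1, Col1a2, Col3a1 and Hoxa11). Other probe sets of these genes did not pass, at 0.36 for Col1a1, 0.06 for Col1a2 and 0.81 and 0.90 for Col3a1. The 9 adipose markers summed to 14855 to 17149 and 6336 to 10774, with 6 falling. Of 6 endothelial markers 1 fell (Cldn5). None of 7 smooth muscle and 8 leukocyte markers passed, but their sums did not overlap either, at 26414 to 28213 after vehicle and 30896 to 33303 after P4 for smooth muscle and 4119 to 4534 and 4687 to 4875 for leukocytes. In PRKO uteri at 40 h, beside the Calb1 and Parm1 values above, no marker passed, but 4 of the sums did not overlap between treatments. Single probe sets had no overlap in 22.3% of cases there. After vehicle and after P4 these sums were 25820 to 26901 and 27916 to 30175 for stroma, 25336 to 25651 and 26694 to 27948 for smooth muscle, 16279 to 18536 and 13289 to 15608 for adipose tissue, and 3998 to 4101 and 3658 to 3895 for leukocytes. The part of these shifts in the S100g, Calb1 and Parm1 values was not tested. Markers of kidney, gut and brain, tissues rich in calbindins, summed to 937 to 1283 over 8 genes on all arrays, with 0 passing in any P4 comparison, and lay between percentiles 4.07 (Syt1) and 63.5 (Gfap, a glial gene) of mean signal. The kidney genes Umod, Slc12a1 and Slc12a3 were at 5.06, 23.8 and 31.9.

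The genes most like each member were those with the highest Pearson correlation over all 24 arrays, a description with no test, in which arrays share groups. Their P4 changes come from the same arrays, so passing or not in wild-type uteri is no test of the likeness. Among the 3 genes themselves, r was 0.755 for S100g with Calb1, −0.533 for S100g with Parm1 and −0.503 for Calb1 with Parm1, and the S100g probe sets had 0.963 with each other. Within 12 arrays of a genotype, S100g and Calb1 had 0.882 in wild-type and −0.401 in PRKO uteri. The wild-type value is favoured by the choice of genes from their wild-type P4 effects. Even the S100g probe sets had only 0.425 with each other in PRKO uteri, against 0.969 in wild-type, so nothing is read from the PRKO value. Closest to S100g were the protease inhibitor Spink1 (r = 0.872), the itaconate enzyme Acod1 (0.866), Bex6 (0.858), the mitochondrial import factor Pam16 (0.847) and the lipoxygenase Alox12e (0.836). Spink1 (1.81 ± 0.17), Acod1 (1.44 ± 0.15) and Alox12e (0.73 ± 0.10) rose at 40 h in wild-type uteri, but their 4 h values were −0.14, 0.08 and −0.09, none of which passed. Closest to Calb1 was the zinc importer Slc39a4 (0.876), with −0.49 ± 0.14 at 4 h (adjusted p = 0.136) and 0.24 ± 0.14 at 40 h (adjusted p = 0.538). It was followed by Bex6 (0.790), the lysosomal protease Ctsd (0.774), Myadm (0.767) and the heparan sulfate epimerase Glce (0.764), none of which passed at either time.

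Closest to Parm1 were the chromatin factor Jade1 (0.815), the fatty acid oxidation enzyme Echs1 (0.794), the stress-responsive Ndrg1 (0.789), the glypican Gpc4 (0.764) and the BMP antagonist Nbl1 (0.752). All 5 were positive at 4 h and negative at 40 h in wild-type uteri, which their choice by likeness to Parm1 favours. Opposite signs, in either order, were seen for 41.7% of all probe sets there. Gpc4 rose at 4 h (0.38 ± 0.09, adjusted p = 0.0441), and Jade1 (−0.38 ± 0.09, adjusted p = 0.0369) and Ndrg1 (−0.51 ± 0.11, adjusted p = 0.0153) fell at 40 h, but none passed at both. In PRKO uteri none of these neighbours of the 3 genes passed at either time.

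**Figure D5:**
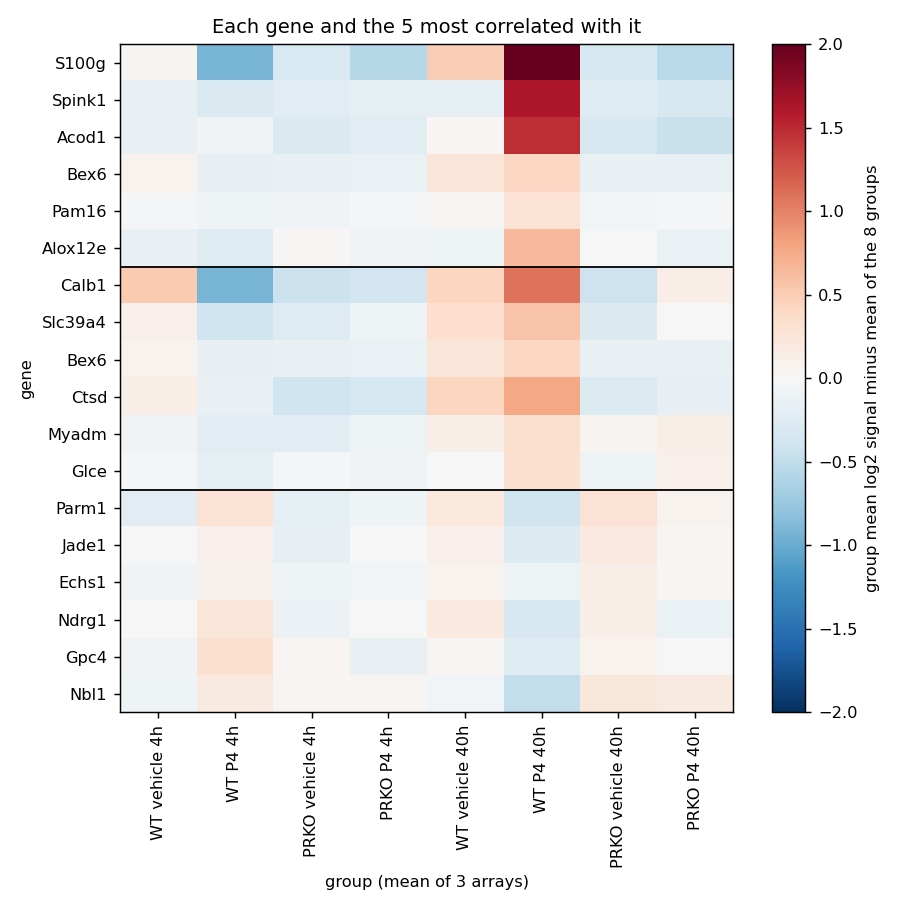
Mean log2 signal of each of 8 groups (3 arrays each) minus the mean of the groups, for S100g, Calb1 and Parm1 and the 5 genes with the highest correlation with each (rows), red for higher and blue for lower, with the S100g value of 2.11 past the end of the colour scale. The column of wild-type P4 at 40 h is reddest for S100g, Spink1 and Acod1 and is blue for Parm1 and its 5 neighbours, while wild-type P4 at 4 h is bluest for S100g (−0.93) and Calb1 (−0.92).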

How the data were processed

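Gene expression was measured on 24 single-colour Affymetrix mouse arrays of uterus RNA. The values are signal intensity per probe set on a linear scale, made by the authors with MAS5 per the submitters' processing notes, and no settings are known. Arrays were multiplied by 0.954 to 1.03, which gave each the same mean (500) after trimming 2% of values, and log2(signal + 32) was used. After 66 control probe sets were left out, the 12422 others were fitted as 8 group means with limma 3.58.1 in R 4.3.3 (intensity trend, moderated two-sided tests, 16 residual and 4.98 prior degrees of freedom). P-values were adjusted by Benjamini-Hochberg over all probe sets within a comparison, and 0.05 was the threshold. Annotation named 1 gene for 10833 probe sets. Lists used 1 probe set per gene, the brightest over all arrays. The members and lists were chosen with earlier results of these data known. Named besides were the 5 most correlated genes per member, opposite calls in wild-type uteri and up to 4 called genes per list. The number of arrays limits the precision. The fit was tested on simulated data. Arrays of the same replicate number deviated together in the wild-type 4 h comparison (correlations 0.114 to 0.516). The wild-type 40 h comparison gave weaker positive values, 0.069 to 0.142. For PRKO the values were 0.067 to 0.481 at 40 h, but at 4 h they ran from −0.124 to 0.627. All 3 pairs of a comparison correlated best with their own number, except for PRKO at 4 h, where 1 did. The labels state no pairing. Alternatives covered the offset, scaling, a dim filter, the arrays fitted, a replicate block and arrays left out.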

Additional observations from a re-analysis of the deposited data

How the results depend on the processing

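Leaving out 1 array at a time, 41 to 138 probe sets passed in wild-type uteri at 4 h (88 with all), 90 to 189 at 40 h (191), 0 to 2 in PRKO uteri at 4 h and 0 to 3 between the PRKO vehicle times, and 3 to 5 opposite calls were made. The 4 h count was 56 without replicate 1 of wild-type vehicle and 47, 41 and 138 without replicates 1, 2 and 3 of wild-type P4, and the 40 h count was 90 to 119 without replicate 2 or 3 of vehicle or any of P4. The 2 calls in PRKO uteri at 4 h and the 3 between times came without replicate 1 of PRKO vehicle at 4 h. Counts in wild-type uteri were 32 and 101 (1 opposite call, the dimmer S100g probe set) when the arrays of 1 genotype were fitted alone, and 29 and 539 with those of 1 time. Without both arrays of high Gapdh ratio they were 29 at 4 h, with 2 opposite calls, and 5 between the PRKO vehicle times, where no scaling gave 2 and quantile normalization 1. With the replicate block 128 passed at 4 h and 386 at 40 h, and 6 calls were opposite, the 4 reported ones included. The replicate block changed no call of S100g, Calb1 or Parm1 in PRKO uteri. For Calb1 at 40 h there, it gave 0.55 ± 0.21 (adjusted p = 0.482 by limma), against an SE of 0.29 without the block. With the PRKO arrays fitted alone, the SE was 0.35 (adjusted p = 0.605 by limma). The block within a time cannot be set for the PRKO vehicle times, and a replicate block with the number shared across times, added after the data were seen, gave 0 probe sets there. The causes were not tested.

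With 1 array left out, PRKO values whose sign turned were Calb1 at 4 h (−0.23 to 0.37), the dimmer S100g probe set at 40 h (−0.13 to 0.040, and 0.029 under quantile normalization), the time difference of S100g (−0.022 to 0.18 and −0.040 to 0.13), and the vehicle times for the brighter S100g probe set (−0.090 to 0.062) and Calb1 (−0.27 to 0.34). Over all alternatives, 252 PRKO tests of S100g, Calb1 or Parm1 were run and 0 passed, the lowest adjusted p by limma being 0.101. Calb1 at 40 h ranged from 0.50 to 0.82 in wild-type and from 0.24 to 0.82 in PRKO uteri. Of the 5 neighbours, Spearman correlation kept 1 for S100g, 2 for Calb1 and 4 for Parm1, and the 8 group means kept 1 for each.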

Other observations

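The genes beside each member on its chromosome, 3 protein-coding genes on either side by the order of the RefSeq annotation (GRCm38.p6), were looked up after the members had been analysed, by position and not by value. Of 18 such genes 9 were measured, by 10 probe sets. In wild-type uteri 1 of the 10 passed at 4 h (0.708% of all probe sets did) and 0 at 40 h (1.54% did) by limma. It was Ctps2, a CTP synthase gene next to S100g, which rose at 4 h (0.42 ± 0.08, adjusted p = 0.0132) while S100g was lower, and had −0.04 ± 0.08 at 40 h. Beside Calb1, Decr1 had −0.14 ± 0.11 and −0.09 ± 0.11. Beside Parm1, the growth factor gene Btc had −0.11 ± 0.10 and −0.10 ± 0.10 and was dim, at percentile 12.4 of mean signal.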
